A study of Homo sapiens with 18 samples.

Results

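The 10 genes described here encode the basic leucine zipper proteins of the AP-1 transcription factor and its close relatives in PC3, an established prostate carcinoma cell line of human origin. They are the JUN family (JUN, JUNB and JUND), the FOS family (FOS, FOSB, FOSL1 and FOSL2), ATF3, BATF3 and the small MAF protein MAFF. They were chosen by symbol from the 20365 genes of the deposited tables. RNA was sequenced in 18 libraries, 3 in each of 6 groups. In the knockdown experiment, PC3 cells carried a lentiviral short hairpin RNA (shRNA) against Elongin B (EloB KD), one against Elongin C (EloC KD) or a control (Control KD), in medium with 10% fetal calf serum. In the peptide experiment, PC3 cells without a stated hairpin were exposed for 24 h to 12,5 µM (the labels' decimal comma) of a peptide in 2.5% serum, either the WT BC-box peptide, its Mutant form or the Scrambled sequence, called the WT, mutant and scrambled peptide here. The number of hairpins per target, the time after infection and the peptide sequences are not given in the sources used here. Whether replicates came from separate cultures is not stated in the labels. The p-values therefore rest on sample-to-sample spread that may be technical.

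AP-1 is a dimer of a JUN protein with another JUN protein or with a FOS or ATF protein, and the dimer binds short palindromic DNA elements, the TRE and the CRE. JUN and FOS are immediate-early genes that growth factors and stress kinases switch on within minutes, FOSL1 is a later and more lasting member common in invasive carcinoma cells, and ATF3 is a stress-induced gene whose product can repress or activate. The small MAF proteins lack a transactivation domain and bind DNA with NFE2L2 or BACH1, and BATF3 pairs with JUN proteins. Elongin B and Elongin C form the adaptor that joins BC-box proteins to cullin ubiquitin ligases.

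The libraries held 40.3 to 57.2 M counted reads in the knockdown experiment and 31.7 to 34.7 M in the peptide experiment. All 10 genes passed the filter on low values, a normalised count averaging 10 or more across an experiment's 9 libraries, as 13764 genes did in the knockdown and 13105 in the peptide experiment. FOSB was the lowest, with means of 93.9 and 59.7 and at least 26 reads in every library. In the library-wise check of the labels, ELOB had 478 to 596 normalised counts in EloB KD against 2626 to 4950.3 in Control KD, and ELOC had 492 to 558 in EloC KD against 4097 to 4797. Of the markers of PC3 cells, KRT8, KRT18, EPCAM and VIM were present in every library. KLK3, listed as low or absent in this line, was at 0 in every library. EPCAM moved with the groups: its normalised count was 1715 ± 201 (SD, n = 3) in Control KD, 1336 ± 144 in EloB KD and 516 ± 131 in EloC KD. KRT18 was also lower in every EloC KD library, at 2963 ± 590.1 against 5690.0 ± 509 in Control KD and 5990.3 ± 292 in EloB KD. KRT8 had means of 3239, 3759 and 2586 and VIM of 63198, 59401 and 60940.5 in Control KD, EloB KD and EloC KD, with overlap between Control KD and EloC KD. The part of these genes in the AP-1 results was not tested. In bulk RNA, more expressing cells and more RNA per cell cannot be told apart.

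Sequence upstream of the starts was examined because AP-1 genes are known to be bound by AP-1 and ATF proteins themselves. RefSeq promoters (GRCh38.p14) were matched for 8 of the 10 genes, with 10 starts, since ATF3 and MAFF have 2 starts each. FOSL1 and BATF3 were not matched. The 250 bases before each start were searched on both strands for the TRE (TGACTCA, whose reverse is TGAGTCA), the CRE (TGACGTCA, its own reverse), the element TGACATCA, the element TGACGTAA and the serum response CArG box. No motif overlapped another. The windows, 30 bases each and written 5′ to 3′ on the gene's strand, show the matches in capitals.
JUN (chr1:58784096-58784125, minus strand): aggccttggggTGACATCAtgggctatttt
JUND (chr19:18281804-18281833, minus strand): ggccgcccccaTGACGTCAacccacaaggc
FOSB (chr19:45467925-45467954, plus strand): caaggggcgggTGACGTAAgcaggggggcg
ATF3 start 1 (chr1:212565273-212565302, plus strand): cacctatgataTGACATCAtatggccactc
MAFF start 1 (chr22:38201929-38201958, plus strand): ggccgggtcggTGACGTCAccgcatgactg
The matched bases lie 67 to 60 bases before the RefSeq start in JUN, 200 to 193 in JUND, 60 to 53 in FOSB, 123 to 116 in ATF3 and 54 to 47 in MAFF. In the GENCODE v29 annotation the windows of JUN and MAFF fall in exons of those genes, and the other 3 lie upstream of the gene. Among all 35116 RefSeq promoters, 2.37% held TGACATCA, 1.65% the CRE, 0.370% TGACGTAA, 4.20% the TRE and 1.16% a CArG box. Any of these other than the CArG box was found in 8.38% of them, a share counted by promoter and not by gene. The starts of JUNB, FOS and FOSL2 and the other starts of ATF3 and MAFF held none of these motifs in this window, and no start of the 8 genes held the TRE or the CArG box. Of the 5 genes with a match, JUN, JUND, FOSB and ATF3 rose in EloC KD and MAFF was not called there, and of the 3 without one, FOS and FOSL2 rose and JUNB was not called.

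Levels were compared between genes per kilobase of annotated exon, on the normalised count scale. The length covers all annotated exons of a gene, and which isoforms these cells use was not examined, so the order depends on that choice. In Control KD the order of mean levels was FOSL1 (10168 per kb), JUN (1247), JUND (666), FOSL2 (653), JUNB (455), MAFF (298), ATF3 (96.7), BATF3 (52.8), FOS (20.2) and FOSB (10.5). The Control KD libraries of JUND and FOSL2 overlapped, as did those of FOSL2 and JUNB and those of JUNB and MAFF, so the order among these neighbours does not exceed the spread. FOSL1 stood first in all 6 groups, from 6981 per kb with the mutant peptide to 13054 in EloC KD, and JUN stood next in all 6. FOSB stood last in all 6 groups, between 8.22 and 28.6 per kb. In EloB KD, FOS (72.7) moved above BATF3 (44.2), without overlap between their libraries. In EloC KD, ATF3 (504) moved above MAFF (281), again without overlap.

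Each knockdown was set against Control KD, which asks how AP-1 genes respond to loss of an Elongin subunit, and both comparisons use the same Control KD libraries. In EloC KD, 7 of the 10 genes rose, led by ATF3 (5.13-fold), FOSB (2.59-fold) and FOS (2.21-fold). In EloB KD, 4 of the 10 were called: FOS (3.54-fold) and JUN (1.51-fold) rose, and FOSL1 and FOSL2 fell. Called means an adjusted p under 0.05 in limma, fitted to log2(normalised count + 1) and adjusted by Benjamini-Hochberg over all genes tested. Of all genes tested, 42.5% were called in EloC KD (21.3% higher) and 20.5% in EloB KD (9.34% higher and 11.2% lower). The median log2 fold change of the 10 genes was 0.72 in EloC KD, beside 0.01 over all genes, and -0.02 in EloB KD, beside 0.004 over all genes. The groups did not overlap for 7 of the 10 genes in EloC KD (53.7% of all genes) and for 4 in EloB KD (38.4%). With the replicate number as a block, limma called 8 of the 10 in EloC KD (57% of all genes) and 5 in EloB KD (36.3%).

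**Figure D1:**
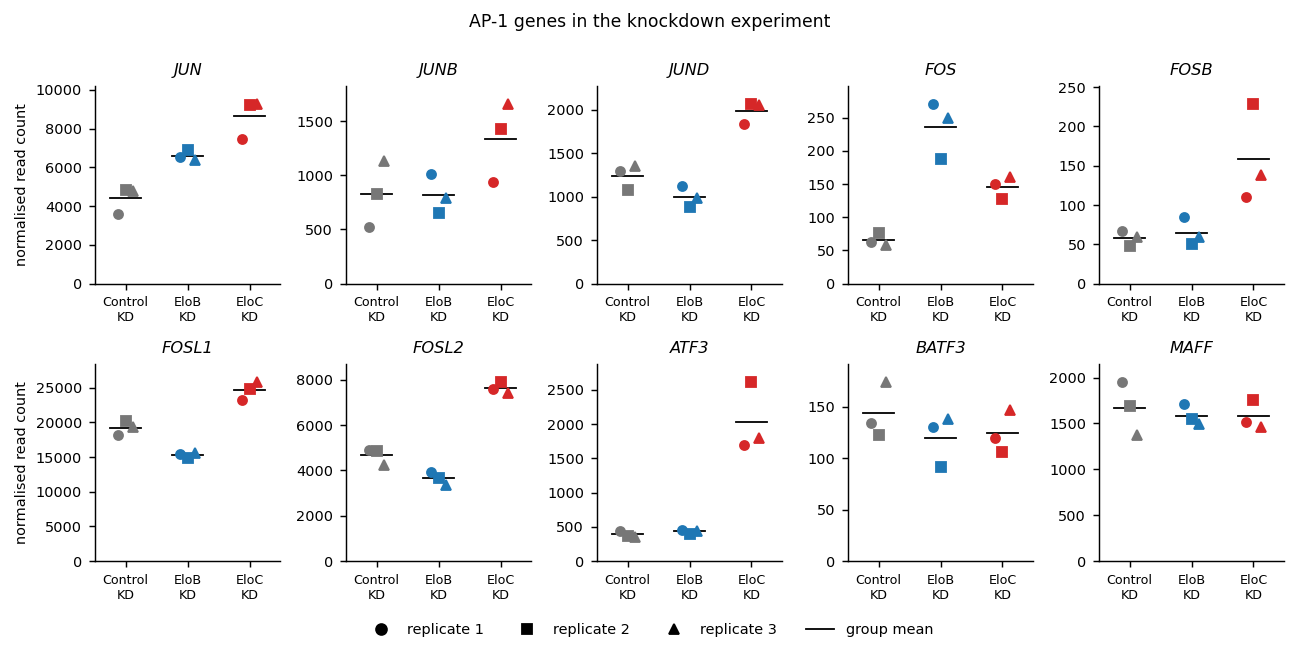
Normalised read counts (vertical axes, linear, from 0) of the 10 AP-1 genes in the 9 knockdown libraries, grouped by hairpin; symbols mark the replicate number and bars the group mean. ATF3 libraries of EloC KD sit between 1692 and 2621, above all Control KD and EloB KD libraries, whereas FOS is highest in EloB KD.

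JUN encodes c-Jun, the strongest transactivator of the JUN family and the substrate of the JNK kinases (chromosome 1, 58780788 to 58784327, minus strand, GRCh38). Its normalised counts were 3604, 4842 and 4798 in the Control KD libraries (replicates 1, 2 and 3), 6522, 6885 and 6375 in EloB KD and 7483, 9242 and 9264 in EloC KD. The 3 groups did not overlap, with Control KD lowest and EloC KD highest. JUN rose by a log2 fold change of 0.98 ± 0.13 (SE; 1.97-fold) in EloC KD, adjusted p 0.000226, and of 0.59 ± 0.13 in EloB KD, adjusted p 0.00927, both in limma.

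JUND, the member usually expressed in resting cells (chromosome 19, 18279760 to 18281622, minus strand), had 1296, 1072 and 1354 normalised counts in Control KD, 1123, 882 and 980.0 in EloB KD and 1837, 2062 and 2051 in EloC KD. All EloC KD libraries were above the others, while EloB KD replicate 1 overlapped Control KD. JUND rose in EloC KD (log2 0.68 ± 0.12, adjusted p 0.00152 in limma). In EloB KD its log2 fold change was -0.32 ± 0.12 with an adjusted p of 0.0977, and 0.0394 in limma with the replicate number as a block.

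JUNB, which can restrain JUN activity (chromosome 19, 12791496 to 12793315, plus strand), had 525, 829 and 1129 normalised counts in Control KD, 1009, 656 and 794 in EloB KD and 935, 1423 and 1657 in EloC KD. Its groups overlapped, and the Control KD libraries alone spread from replicate 1, the lowest of all 9, to replicate 3, above every EloB KD library. In EloC KD the log2 fold change was 0.72 ± 0.29, not called in limma (adjusted p 0.0638), but called with the replicate block (0.0244), in DESeq2 on the recovered reads (0.0337), without Control KD replicate 3 (0.0195) and without EloC KD replicate 1 (0.0260). In EloB KD it was 0.03 ± 0.29 (adjusted p 0.951). JUNB exons share 259 bases (14.2% of their length) with HOOK2 on the opposite strand, and whether the counting used strand is not given in the sources used here. No other of the 10 genes overlaps another gene's exons.

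FOS, the prototype immediate-early gene (chromosome 14, 75278774 to 75282230, plus strand), had 62.2, 75.5 and 58.4 normalised counts in Control KD, 270.2, 187 and 249 in EloB KD and 149, 128 and 160.0 in EloC KD. The 3 groups did not overlap, and EloB KD was the highest. FOS rose by log2 1.82 ± 0.19 in EloB KD (adjusted p 0.000231) and by log2 1.15 ± 0.19 in EloC KD (adjusted p 0.00101, limma). These levels rest on 48 to 290 reads per library.

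FOSB, another immediate-early member (chromosome 19, 45467995 to 45475179, plus strand), had 66.9, 48.3 and 59.7 normalised counts in Control KD, 84.8, 50.9 and 58.7 in EloB KD and 109.8, 228 and 138 in EloC KD. All EloC KD libraries lay above all others, with replicate 2 well above replicates 1 and 3. The log2 fold change was 1.37 ± 0.29 in EloC KD (adjusted p 0.00379) and 0.13 ± 0.29 in EloB KD (adjusted p 0.792, limma). Without EloC KD replicate 2 the EloC KD value was 1.08.

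FOSL1, which encodes FRA-1 (chromosome 11, 65892049 to 65900573, minus strand), was the most abundant of the 10, with 18125, 20160.5 and 19275 normalised counts in Control KD. EloB KD had 15396, 14807 and 15587 and EloC KD 23253, 24788 and 25855. Every EloB KD library was below and every EloC KD library above Control KD. FOSL1 fell in EloB KD (log2 -0.33 ± 0.08, adjusted p 0.0161) and rose in EloC KD (log2 0.36 ± 0.08, adjusted p 0.00458, limma). The fall was not called with quantile scaling (log2 -0.19, adjusted p 0.122), without Control KD replicate 2 (0.0632) or without EloB KD replicate 2 (0.0576).

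FOSL2, which encodes FRA-2 (chromosome 2, 28392448 to 28417312, plus strand), took the same order. It had 4921, 4868 and 4239 normalised counts in Control KD, 3919, 3649.7 and 3368 in EloB KD and 7589.8, 7909.5 and 7395 in EloC KD, without overlap between any groups. The log2 fold change was 0.71 ± 0.09 in EloC KD (adjusted p 0.000202) and -0.36 ± 0.09 in EloB KD (adjusted p 0.0190, limma). The EloB KD call was lost with quantile scaling (0.0531) and without Control KD replicate 1 (0.0609) or 2 (0.0713) or EloB KD replicate 2 (0.0517) or 3 (0.0719).

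ATF3, the stress-induced member of the ATF family (chromosome 1, 212565334 to 212620777, plus strand), had 447, 365 and 360.4 normalised counts in Control KD, 458, 401 and 444 in EloB KD and 1692, 2621 and 1799.9 in EloC KD. The lowest EloC KD library held several times the level of the highest library of the other groups, and Control KD and EloB KD overlapped. ATF3 rose by log2 2.36 ± 0.17 in EloC KD (adjusted p 1.01e-05). In EloB KD the value was log2 0.16 ± 0.17 (adjusted p 0.546, limma), with EloB KD above Control KD in each of the 3 replicate numbers.

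BATF3 (chromosome 1, 212686418 to 212699985, minus strand) and MAFF (chromosome 22, 38200767 to 38216511, plus strand) were not called in either knockdown. BATF3 had 134, 122 and 174 normalised counts in Control KD, 130.4, 91.2 and 138 in EloB KD and 119.7, 106 and 146 in EloC KD, and all groups overlapped. MAFF had 1955, 1687 and 1376 in Control KD, 1713, 1550.2 and 1492 in EloB KD and 1511, 1755 and 1463 in EloC KD, again with overlap throughout. The log2 fold changes in EloC KD were -0.20 ± 0.22 for BATF3 (adjusted p 0.485) and -0.08 ± 0.13 for MAFF (adjusted p 0.679, limma). ATF3 and BATF3 lie near each other on chromosome 1, and only ATF3 of that pair was called in EloC KD; the difference between the 2 genes was not tested.

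EloB KD and EloC KD were then compared directly, which tests whether the subunits' knockdowns differ. Of the 10 genes, 6 were called lower and 1 higher in EloB KD relative to EloC KD, where 46.1% of all genes were called (22.3% higher and 23.8% lower). With the replicate block 8 were called (59.4% of all genes), and the groups did not overlap for 7 (56.3% of all genes). The median log2 difference was -0.69, beside -0.01 over all genes tested. ATF3 differed most, by log2 -2.20 ± 0.17 (adjusted p 9.69e-06, limma), followed by FOSB (-1.24 ± 0.29, 0.00579), FOSL2 (-1.07 ± 0.09, 1.51e-05), JUND (-1.0 ± 0.12, 0.000128), FOSL1 (-0.69 ± 0.08, 8.45e-05) and JUN (-0.39 ± 0.13, 0.0291). FOS was the exception, higher in EloB KD by log2 0.68 ± 0.19 (adjusted p 0.0156, limma). JUNB had a log2 difference of -0.69 ± 0.29 (adjusted p 0.0704, 0.0285 with the replicate block, 0.0330 in a fit of these groups only and 0.0279 without EloC KD replicate 1, limma, and 0.0301 in DESeq2), and in replicate number 1 it was not lower in EloB KD. The JUN difference was not called with quantile scaling (adjusted p 0.0943) or without EloB KD replicate 1 (0.0672) or 3 (0.0832) or EloC KD replicate 2 (0.0950) or 3 (0.0927). The FOS difference was not called without EloB KD replicate 1 (0.0578) or 3 (0.0568) or EloC KD replicate 2 (0.0568).

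**Figure D2:**
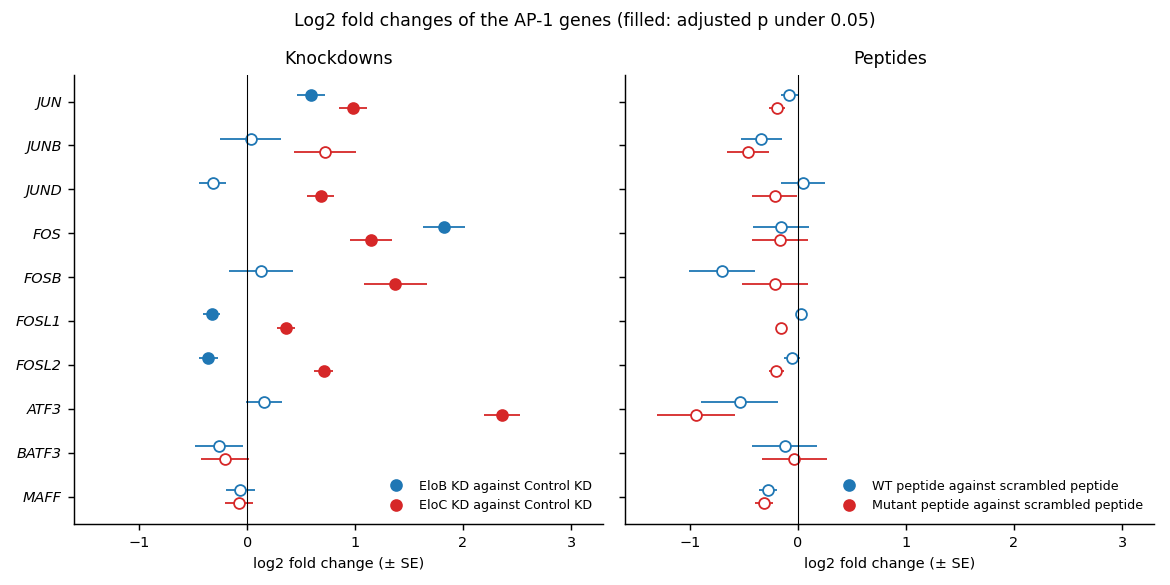
Log2 fold changes (limma, on log2(normalised count + 1)) of the 10 AP-1 genes, with standard errors as bars. Each knockdown is set against Control KD, and the WT and mutant peptide against the scrambled peptide. ATF3 reaches 2.36 in EloC KD against 0.16 in EloB KD, and FOS reaches 1.82 in EloB KD against 1.15 in EloC KD.

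The make-up of each family was computed per kilobase for every library. FOSL1 made up 93.7% of FOS family signal in Control KD, 93.2% in EloB KD and 92.0% in EloC KD, so per kilobase the family was mostly FOSL1 in each group. These shares depend on the exon lengths used, 1887 bases for FOSL1 and 7157 for FOSL2. Without division by length, Control KD had means of 19187 normalised counts for FOSL1 and 4676 for FOSL2. FOS itself was 0.186% of it in Control KD, 0.836% in EloB KD and 0.317% in EloC KD. In the JUN family, JUN made up 52.7% ± 3.78 (SD, n = 3) in Control KD, 65.5% ± 4.30 in EloB KD and 57.7% ± 1.02 in EloC KD. The JUN share of the EloB KD libraries (61.4% to 70.0%) lay above those of Control KD (50.2% to 57.0%), although 3 libraries against 3 cannot give an exact permutation p below 0.1. JUND took 18.7% in EloB KD (17.0% to 20.1%) against 28.5% in Control KD (24.0% to 34.8%). Summed over the family, the JUN signal per kb was 2368 in Control KD (2002 to 2702), 2847 in EloB KD (2763 to 2999) and 4247 in EloC KD (3613 to 4628). The FOS family sum was 10852 in Control KD (10324 to 11396), 8682 in EloB KD (8424 to 8818) and 14193 in EloC KD (13449 to 14809). EloB KD thus had more JUN and less FOS family signal than Control KD, and EloC KD more of both, without overlap between groups in either sum.

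**Figure D3:**
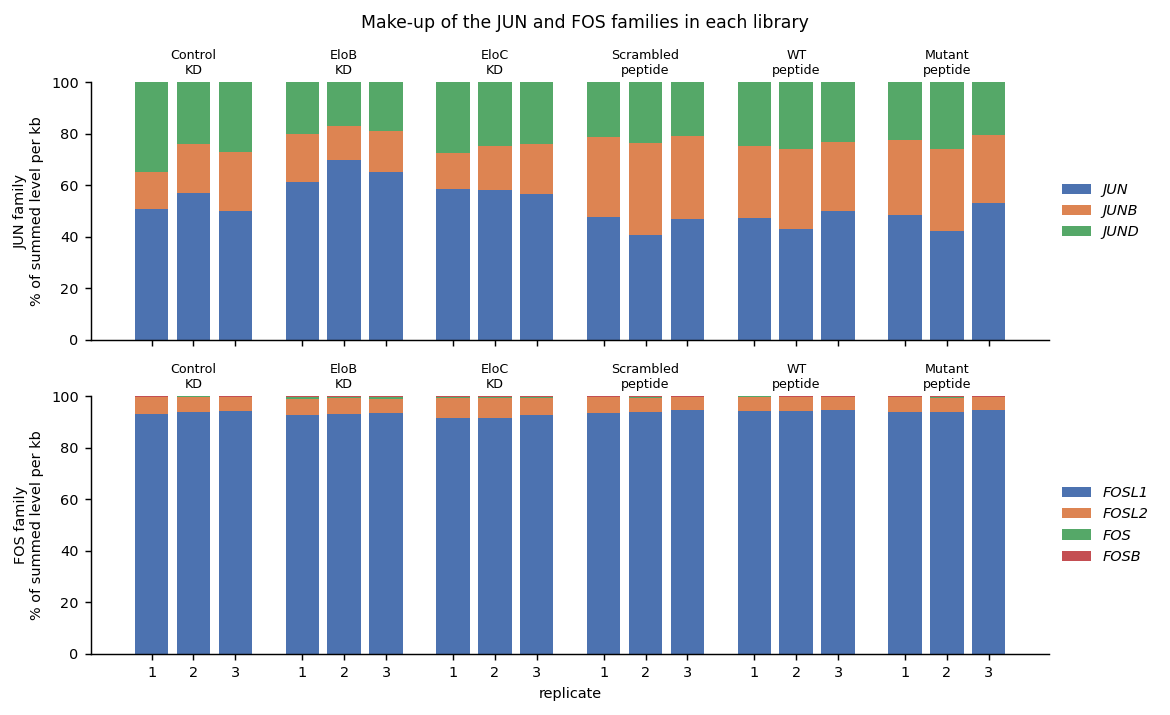
Share of the per-kilobase signal of the JUN family and of the FOS family taken by each member, in percent, in each library. FOSL1 fills nearly all of the FOS family in every group, from a mean of 92.0% (n = 3) in EloC KD upward. The JUN share of the JUN family is highest in EloB KD, at a mean of 65.5% (n = 3).

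The peptides were compared with the scrambled peptide to ask whether a BC-box that binds the Elongin BC adaptor changes expression. In limma no AP-1 gene was called with the WT or the mutant peptide, or between them. At an unadjusted p under 0.05 in limma there were 2 genes with the WT peptide, 6 with the mutant peptide and 1 between them. The share of all genes at that unadjusted p was not computed, so these counts have no background. edgeR called 0 in each (1.51%, 0% and 0% of all genes), and DESeq2 called 1, 2 and 1 (4.44%, 1.4% and 0.481% of all genes). Over all genes limma called 1.43% (0.839% higher and 0.595% lower), 0% and 0%. Groups did not overlap for 3 members with the WT peptide (19.7% of all genes), 3 with the mutant peptide (13.7%) and 2 between them (12.1%). Deviations from group means correlated at 0.254 to 0.715 between peptide libraries with the same replicate number, and at -0.546 to 0.336 between those with different numbers. With the number as a block limma called 3 of the 10 genes lower with the WT peptide (16.2% of all genes were called), 6 lower with the mutant peptide (8.3%) and 3 higher with the WT than with the mutant peptide (4.09%). The median log2 fold change of the 10 genes was -0.14 with the WT peptide, beside 0.0001 over all genes. With the mutant peptide it was -0.21, beside -0.001, and between the WT and mutant peptide 0.12, beside 0.003. Both comparisons share the scrambled peptide libraries.

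ATF3 had 4090.2, 1838 and 3165 normalised counts with the scrambled peptide, 2392, 1227 and 2636 with the WT peptide and 1868, 1052 and 1697 with the mutant peptide (replicates 1, 2 and 3). The groups overlapped, and replicate 2 was lowest in each of them, by a mean of 0.92 on the log2 scale below the other replicates. Within every replicate number, the scrambled peptide was highest and the mutant peptide lowest. The log2 differences from the scrambled peptide were -0.77, -0.58 and -0.26 with the WT peptide and -1.13, -0.81 and -0.90 with the mutant peptide. ATF3 gave log2 -0.54 ± 0.36 (adjusted p 0.583, and 0.000197 with the replicate block) for the WT peptide in limma, and between -0.86 (without scrambled peptide replicate 2) and -0.20 (without WT peptide replicate 2) when 1 library was left out. For the mutant peptide it gave -0.94 ± 0.36 (0.471, and 1.63e-05 with the block), and between the WT and the mutant peptide 0.40 ± 0.36 (0.930, and 0.00775 with the block). The last value ranged from 0.15 (without mutant peptide replicate 2) to 0.75 (without WT peptide replicate 2).

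**Figure D4:**
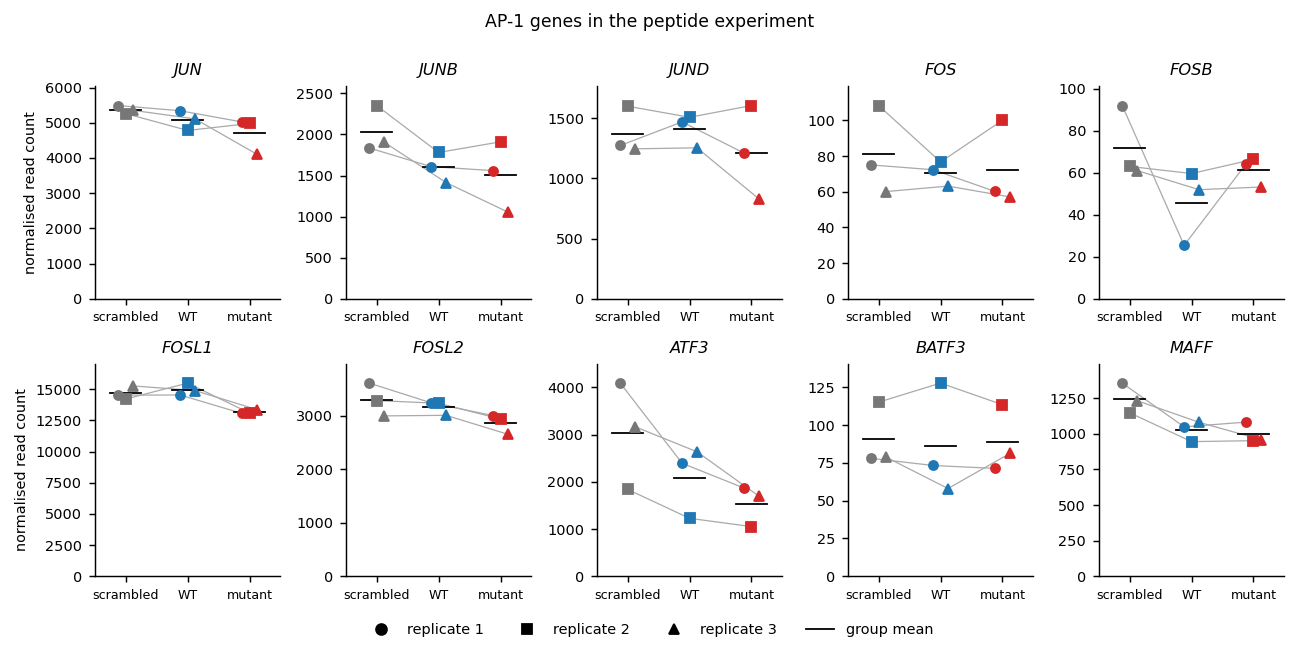
Normalised read counts (vertical axes, linear, from 0) of the 10 AP-1 genes in the 9 peptide libraries, grouped by peptide; symbols mark the replicate number and bars the group mean. In ATF3 each replicate number is highest with the scrambled and lowest with the mutant peptide, and replicate 2 is the lowest library of every group.

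MAFF, the small MAF protein, had 1355, 1147 and 1232 normalised counts with the scrambled, 1049, 945 and 1081 with the WT and 1082, 951 and 959 with the mutant peptide. Both BC-box groups lay wholly below the scrambled peptide. The log2 fold change was -0.28 ± 0.08 with the WT peptide (adjusted p 0.154, 0.00199 with the block and 0.0499 in DESeq2) and -0.32 ± 0.08 with the mutant peptide (0.244, 0.00164 with the block and 0.0453 in DESeq2). Its log2 difference between the WT and mutant peptide was 0.04 ± 0.08 (adjusted p 0.996, limma).

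JUNB had 1836, 2352 and 1906 normalised counts with the scrambled, 1608, 1781 and 1415 with the WT and 1559.7, 1911 and 1055 with the mutant peptide. All WT peptide libraries were below the scrambled peptide, and mutant peptide replicate 2 overlapped it. The log2 fold changes were -0.34 ± 0.19 (adjusted p 0.5, 0.0173 with the block) and -0.46 ± 0.19 (0.531, 0.00487 with the block, limma). FOSB had 92.0, 63.0 and 61.1 with the scrambled, 25.4, 59.6 and 51.9 with the WT and 64.2, 66.4 and 53.2 with the mutant peptide. WT peptide replicate 1 was the lowest, and the WT peptide lay below the scrambled peptide and overlapped the mutant peptide. Its log2 fold change with the WT peptide was -0.71 ± 0.30 (adjusted p 0.354, 0.0837 with the block), and -0.34 without WT peptide replicate 1. Without mutant peptide replicate 3 the JUNB value for the mutant peptide was -0.23.

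FOSL1 had 14530.3, 14217 and 15269 normalised counts with the scrambled, 14539.8, 15495 and 14898 with the WT and 13062, 13089.8 and 13368 with the mutant peptide. The mutant peptide libraries lay below all others. FOSL1 differed between the WT and mutant peptide by log2 0.18 ± 0.04 (adjusted p 0.403 in limma, 0.00542 with the block and 0.00805 in DESeq2), and between the mutant and scrambled peptide by -0.15 ± 0.04 (0.267, 0.00834 with the block and 0.0332 in DESeq2).

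FOSL2 had 3605, 3279 and 2993 normalised counts with the scrambled, 3236, 3228 and 3004 with the WT and 2999, 2935 and 2650.1 with the mutant peptide. The scrambled peptide overlapped both others, and the WT peptide lay just above the mutant peptide. FOSL2 was called lower with the mutant peptide only with the replicate block (log2 -0.20 ± 0.07, adjusted p 0.460, 0.00406 with the block), and higher with the WT than with the mutant peptide in the same way (0.14 ± 0.07, 0.781, 0.0450 with the block, limma). JUN had 5489.6, 5261 and 5354 normalised counts with the scrambled, 5342, 4782 and 5110.1 with the WT and 5022, 4979.6 and 4105 with the mutant peptide. Its mutant peptide libraries lay below all scrambled peptide libraries, and the WT peptide overlapped both. JUN with the mutant peptide gave log2 -0.20 ± 0.08 (adjusted p 0.492, 0.0358 with the block, limma), and -0.10 without mutant peptide replicate 3. Without scrambled peptide replicate 1 the FOSL2 value for the mutant peptide was -0.13.

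JUND, FOS and BATF3 were not called with either peptide under any setting tried. FOS had 75.0, 108 and 60.1 normalised counts with the scrambled, 72.3, 76.7 and 63.2 with the WT and 60.1, 100.1 and 57.1 with the mutant peptide. JUND had 1274, 1601 and 1247 with the scrambled, 1471, 1509 and 1255 with the WT and 1211, 1607 and 830.1 with the mutant peptide. BATF3 had 78.0, 115 and 78.8 with the scrambled, 73.3, 128 and 58.1 with the WT and 71.4, 114 and 81.3 with the mutant peptide. The groups overlapped in all 3 genes. In these 3 genes and in JUNB, replicate 2 was the highest library of each peptide group, the opposite of ATF3.

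Counted within replicate numbers, JUN, JUNB, FOSB, ATF3 and MAFF (5 of 10) were lower with the WT than with the scrambled peptide in every number, where 24.0% of all genes tested were lower and 24.7% higher in every number. With the mutant peptide JUN, JUNB, FOS, FOSL1, FOSL2, ATF3 and MAFF (7 of 10) were lower in every number, beside 22.6% lower and 22.8% higher over all genes. FOSL1, FOSL2 and ATF3 (3 of 10) were higher and FOSB was lower with the WT than with the mutant peptide in every number, beside 20.0% and 19.0% over all genes. No member was higher than with the scrambled peptide in every number with either peptide.

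Levels in the experiments cannot be tested against each other, because their tables were normalised separately. The groups also differ in serum, hairpin and exposure to a peptide, which cannot be told apart. Side by side, ATF3 stood at 391 ± 48.4 normalised counts in Control KD and 3031 ± 1132 with the scrambled peptide, and JUNB at 827 ± 302 and 2031 ± 280.4. MAFF, by contrast, stood at 1672 ± 289.8 and 1245 ± 105.

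A list of 35 genes known as AP-1 targets was described next, with 33 tested in the knockdown experiment (SPP1 and CCL2 were too low) and 30 in the peptide experiment. In EloC KD 18 rose and 2 fell, where 21.3% of all genes were higher, with a median log2 fold change of 0.64 beside 0.01 over all genes. They were led by the matrix metalloproteinase MMP10 (log2 2.60 ± 0.14; 972 ± 123.1 against 159 ± 9.84 normalised counts), the heme oxygenase HMOX1 (2.03 ± 0.11), the cytokine IL6 (3.60 ± 0.27) and the stromelysin MMP3 (4.85 ± 0.43), with adjusted p-values of 2.66e-06, 2.66e-06, 1.32e-05 and 2.95e-05 in limma. The levels of IL6 and MMP3 are not reported here. The filter used the mean of all 9 libraries, so a target low in Control KD could pass through its EloC KD libraries. In the fit of EloB KD and Control KD only, 32 targets passed it. At a mean of at least 50, 31 targets were tested in EloC KD, with 17 called higher and 2 lower. In EloB KD 4 rose and 8 fell, with a median of -0.14, where 9.34% of all genes were higher and 11.2% lower. With the replicate block 8 targets were called higher and 11 lower there (36.3% of all genes were called). HBEGF, an EGF receptor ligand, rose there by log2 1.49 ± 0.16 (adjusted p 0.000241). The ligand AREG (-1.52 ± 0.21, 0.000868), the cyclin CCND1 (-0.66 ± 0.08, 0.000481) and the receptor EGFR (-0.76 ± 0.12, 0.00207) fell. Between the knockdowns, 21 targets were lower and 2 higher in EloB KD relative to EloC KD, with a median of -0.78 beside -0.01 over all genes. Of all genes, 46.1% were called in that comparison (22.3% higher and 23.8% lower). HMOX1 (-1.94 ± 0.11), CCND1 (-1.29 ± 0.08), EGFR (-1.86 ± 0.12) and MMP10 (-2.02 ± 0.14) had the smallest adjusted p.

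**Figure D5:**
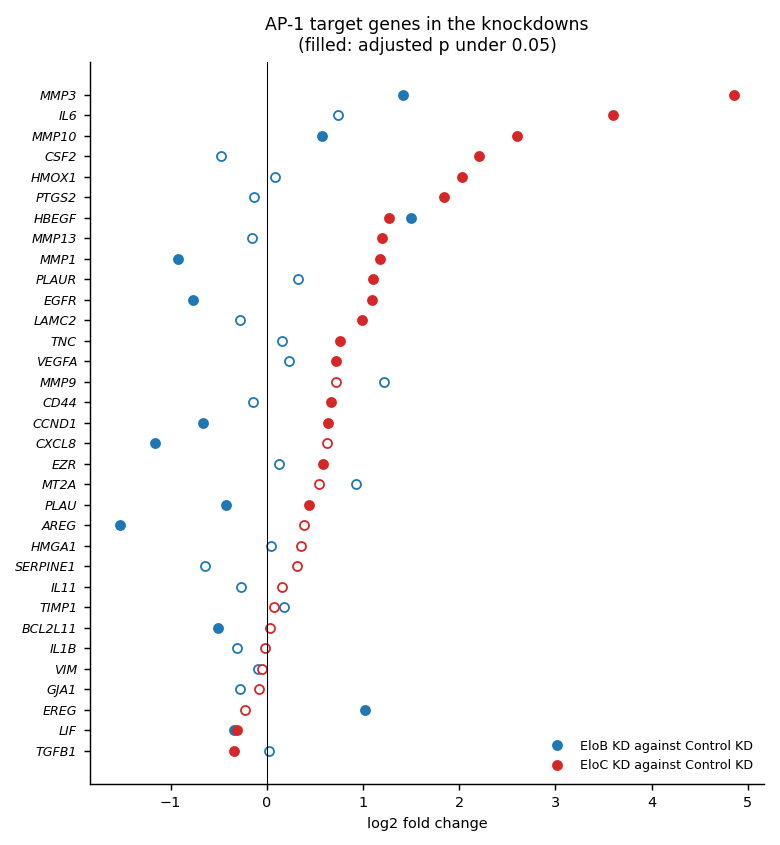
Log2 fold changes against Control KD (limma) of the 33 AP-1 target genes tested, ordered by the value in EloC KD; filled symbols have an adjusted p under 0.05. In EloC KD 18 are called higher and 2 lower, and in EloB KD 4 higher and 8 lower.

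With the WT peptide, 3 of the 30 targets were called in limma: IL1B fell by log2 0.66 ± 0.09 (3143 ± 341 against 4944 ± 319 normalised counts, adjusted p 0.00498), MMP10 fell by 0.99 ± 0.15 (0.0136) and AREG rose by 0.40 ± 0.08 (0.0464). The AREG call was lost with no filter (adjusted p 0.0528), in a fit of the compared groups only (0.0757), without scrambled peptide replicate 2 (0.161) or 3 (0.121) and without WT peptide replicate 1 (0.135), 2 (0.125) or 3 (0.151). The MMP10 call was lost without WT peptide replicate 1 (0.0716), and DESeq2 gave it no adjusted p. MMP10 and AREG also changed in a knockdown, MMP10 in the other direction in both and AREG in the other direction in EloB KD. With the replicate block, 3 targets were higher and 12 lower with the WT peptide (16.2% of all genes were called), and 1 higher and 11 lower with the mutant peptide (8.3% of all genes), against 0 called in limma for the mutant peptide without it (9 at an unadjusted p under 0.05, 0 in edgeR and 4 in DESeq2). Between the WT and mutant peptide, 0 targets were called in limma (6 at an unadjusted p under 0.05, 0 in edgeR, 1 in DESeq2, and 3 higher and 2 lower with the block). The target counts at an unadjusted p have no computed share of all genes beside them.

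Of the 35 dimer partners, kinases and ubiquitin ligases that act on AP-1, 31 were tested in each experiment. In EloC KD 11 rose and 4 fell, and the share called in either direction (48.4%) was near that of all genes (42.5%). More rose than fell, where 21.3% of all genes were higher and 21.2% lower. The median log2 fold change was 0.17, beside 0.01 over all genes. The small MAF protein MAFG (0.89 ± 0.09), the stress factor DDIT3 (1.25 ± 0.15), the F-box protein FBXW7 (0.80 ± 0.11), which targets JUN for degradation, and BATF2 (1.48 ± 0.25) had the smallest adjusted p. In EloB KD 5 were called (16.1% of those tested), all lower, with a median of -0.06 beside 0.004 over all genes. Of all genes, 20.5% were called there (9.34% higher and 11.2% lower). The CRE-binding proteins ATF7 (-0.64 ± 0.11, adjusted p 0.00237) and ATF2 (-0.62 ± 0.14, 0.0103), which dimerise with JUN, were among them in limma. So were the MAF partners BACH1 (-0.74 ± 0.15, 0.00588) and NFE2L2 (-0.48 ± 0.11, 0.0139). Between the knockdowns 15 were lower and 3 higher in EloB KD, with a median of -0.27 beside -0.01 over all genes. Of all genes, 46.1% were called in that comparison (22.3% higher and 23.8% lower). BACH1 (-1.57 ± 0.15), FBXW7 (-0.97 ± 0.11), ATF7 (-0.93 ± 0.11) and DDIT3 (-1.14 ± 0.15) had the smallest adjusted p. With the peptides limma called 0 of the 31 in each comparison, where an unadjusted p under 0.05 was reached by 4 (WT peptide), 2 (mutant peptide) and 2 (between them). The share of all genes at that unadjusted p was not computed. edgeR called 0 in each and DESeq2 1, 1 and 0.

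The genes whose pattern was most like a member's were sought for FOS, FOSB and ATF3, the 3 members with a log2 fold change of at least 1 in EloC KD. Likeness was the root mean square difference in log2(normalised count + 1), centred in each experiment, over the 18 libraries and 11667 candidate genes, so a smaller value is closer. For FOS the closest were HBEGF (0.238), MXD1 (0.261) and ABCA10 (0.303), where the median over candidates was 0.630. For ATF3 they were DUSP10 (0.299), TRAF1 (0.338) and TGFB2 (0.359), with a median of 0.889. For FOSB they were ARID5B (0.324), FAM214B (0.331) and FAM110B (0.341), with a median of 0.615, against a root mean square of 0.592 of FOSB about its own mean.

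In the authors' deposited table of DESeq2 results, 4 of the 10 genes were called in EloB KD (2 higher and 2 lower), 8 in EloC KD, all higher, and 8 between the knockdowns (1 higher and 7 lower). The share of all genes called by the authors was not computed. DESeq2 on the recovered reads called 3456, 6272 and 6730 of 13764 genes in these comparisons. The authors' deposited table called none with the WT peptide at an adjusted p of 0.05. The gene that the authors' deposited table called in EloC KD and limma did not was JUNB, at a log2 fold change of 0.62 and an adjusted p of 0.0355.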

How the data were processed

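RNA-seq libraries of PC3 cells (3 per group, total RNA, a stranded mRNA kit, per the labels' protocols) were counted with featureCounts on hg38 and then normalised in DESeq2 (per the submitters' processing notes, where no version is named). What the authors deposited are DESeq2-normalised counts (a signal per gene), 1 table for each experiment, and DESeq2 results with a log2 fold change and an adjusted p-value per gene. In the deposited comparisons with Control KD, the authors' log2 fold change column also holds other text, a spreadsheet error in place of some values, and only its numbers were read. Whole reads were recovered from each library's smallest step for 100% of values (tolerance 0.05 reads).

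In R 4.3.3, limma 3.58.1 (intensity trend) modelled log2(normalised count + 1) of genes averaging at least 10, the 3 groups sharing 1 spread estimate, 2-sided, with Benjamini-Hochberg adjustment and a threshold of 0.05. Errors are SEs of this fit for log2 values and SDs for levels. DESeq2 1.42.0 and edgeR 4.0.16 with its quasi-likelihood test on recovered reads, other pseudocounts, filters and scalings, a fit of the compared groups only, a replicate block and leaving out each library were alternatives. Deviations from group means correlated at 0.236 to 0.566 (knockdown) and 0.254 to 0.715 (peptide) between libraries with the same replicate number in the labels, over 0.1 in every pair. Between libraries of different groups and numbers they correlated at -0.439 to 0.0703 (knockdown) and -0.546 to 0.336 (peptide). These ranges were apart in the knockdown experiment and overlapped in the peptide experiment. The numbers were treated as pairs only in the replicate block. Positions and exon lengths are from GENCODE v29 (GRCh38). The scripts were tested on simulated data.

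The genes and lists were chosen with earlier results of these data known. Named are the 10 genes in every comparison, ELOB and ELOC, the 4 called members of each other list with the smallest adjusted p, and the 3 genes closest in pattern to each member with an absolute log2 fold change of at least 1 in EloC KD. PC3 markers were fixed as a check, and some genes of these lists are not reported here.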

Additional observations from a re-analysis of the deposited data

Results flagged for a closer look

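The responses of 7 genes differed between the Elongin B and Elongin C knockdowns, by limma's direct comparison of EloB KD with EloC KD (negative values are lower in EloB KD; log2 scale, adjusted p over all genes). Of all genes tested, 46.1% were called in that comparison. ATF3 differed by -2.20 (adjusted p 9.69e-06), FOSB by -1.24 (0.00579), FOSL2 by -1.07 (1.51e-05), JUND by -1.0 (0.000128), FOSL1 by -0.69 (8.45e-05) and JUN by -0.39 (0.0291). FOS differed the other way, by 0.68 (0.0156), and was the only one of the 7 that was higher in EloB KD. FOSL1 and FOSL2 lay below Control KD in every EloB KD library and above it in every EloC KD library.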

How the results depend on the processing

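Among 288 alternative values for the 18 called results of single AP-1 genes, 0 reversed and 16 were no longer past the threshold. All 16 belong to FOSL1 and FOSL2 in EloB KD and to JUN and FOS between the knockdowns. With quantile scaling 2 AP-1 genes were called in EloB KD. With DESeq2, 1 AP-1 gene was called for the WT peptide, 2 for the mutant peptide and 1 between them, and with the replicate block 3, 6 and 3. AP-1 targets numbered 19 in EloB KD with the replicate block; for the WT peptide they were 6 with quantile scaling, 6 with DESeq2 and 15 with the block. For the mutant peptide they were 4 with DESeq2 and 12 with the block, and between the peptides 1 and 5. Partners and regulators numbered 8 in EloB KD with the block, 1 (DESeq2) and 4 (block) for the WT peptide, 1 and 2 for the mutant peptide, and 2 with the block between the peptides. The replicate block moved no other count of calls by over 1.5 times. Pairing by number changed the calls of JUND in EloB KD and of JUNB in EloC KD and between the knockdowns, besides those of the peptides. The cause of these shifts was not tested.

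Leaving out 1 library gave 2 to 4 AP-1 genes in EloB KD (2 when replicate 2 of Control KD or of EloB KD was left out), 1 to 3 targets for the WT peptide (1 without WT peptide replicate 1) and 0 to 1 for the mutant peptide (1 without scrambled peptide replicate 2). Uncalled values reversed as follows, on the log2 scale. JUNB in EloB KD was -0.00522 with DESeq2, FOSB in EloB KD -0.12 with quantile scaling, BATF3 with the mutant peptide 0.00509 with quantile scaling, and FOS between the WT and mutant peptide -0.0370 with edgeR and -0.0367 with DESeq2. Over the left-out libraries, BATF3 ranged from -0.17 to 0.13 between the knockdowns, -0.22 to 0.15 with the mutant peptide, -0.41 to 0.15 between the peptides and -0.44 to 0.12 with the WT peptide. FOS ranged from -0.42 to 0.0606 with the mutant peptide, -0.14 to 0.26 between the peptides and -0.35 to 0.0692 with the WT peptide. FOSB ranged from -0.0782 to 0.28 in EloB KD, FOSL2 from -0.12 to 0.00988 with the WT peptide, and JUNB from -0.26 to 0.29 in EloB KD and -0.11 to 0.31 between the peptides. JUND ranged from -0.44 to 0.0311 with the mutant and -0.0218 to 0.16 with the WT peptide. MAFF ranged from -0.20 to 0.0547 in EloB KD, -0.0469 to 0.0897 between the knockdowns, -0.21 to 0.0446 in EloC KD and -0.000428 to 0.10 between the peptides. FOS, FOSB and BATF3 rest on the fewest reads, down to 26 for FOSB in a peptide library.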
